A study of Homo sapiens
Mus musculus with 16 samples.

Results

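In xenograft tumours of MDA-MB-231 cells, 83 human genes stood at 1 CPM (counts scaled to a human library total of 1 M) or less in all 8 tumours not given nab-paclitaxel and at 10 CPM or more in at least 1 of the 8 tumours given it. They were chosen by these thresholds on the human count matrix, with CPM taken over the raw total of each library, out of 58051 human gene IDs, of which 34750 had a count in at least 1 library. A further ID met the thresholds and was left out by the rule. The same libraries chose the genes, so their difference between tumours with and without nab-paclitaxel is a description and was not tested.

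MDA-MB-231 is a human triple-negative breast cancer line. Each Balb/c nude mouse, a strain without a thymus, received 2 M cells in 50 µl of buffer and Matrigel in the mammary fat pad, and the tumour was excised after 50 days. Each of the 4 groups held 4 mice with 1 paired-end library per tumour. The vehicle group received injections of vehicle only. The nab-paclitaxel group received 30 mg/kg on days 15, 22 and 29. The phenelzine group received 40 mg/kg daily from day 15, and the combination group received both drugs on these schedules. Injections were intraperitoneal. Libraries are named by group and number, "taxane-free" stands for vehicle and phenelzine tumours together, and "taxane-treated" for nab-paclitaxel and combination tumours together. All tumours come from 1 cell line, so the 4 tumours of a group share their source of cancer cells.

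Nab-paclitaxel is paclitaxel bound to albumin. Paclitaxel stabilises microtubules and so blocks the separation of chromosomes in mitosis. Phenelzine inhibits the monoamine oxidases. In a xenograft the cancer cells are human and the stroma, vessels and immune cells are mouse, so human counts stand for the cancer cells as long as each read was assigned to the right species. In bulk tissue, fewer cells of a type and less RNA per cell cannot be told apart.

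The human matrix lists Ensembl IDs without symbols, and the RefSeq table at hand holds 0 Ensembl IDs. Therefore 0 of the 83 IDs were matched to a symbol, and the gene lists for cell types and pathways, the check of MDA-MB-231 markers and the search for mouse counterparts were not applied. Genes are described here by their levels, and 2 IDs are printed: ENSG00000133067, which had the highest CPM in any library, and ENSG00000168542, the next by number of libraries at 10 CPM or more and then by mean. Sequences and positions are not given for the same reason.

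Human totals ranged from 11.1 to 34.5 M counts per library and mouse totals from 3.46 to 27.4 M. A level of 10 CPM equals 111 counts in the smallest human library and 345 in the largest. With 3 counts as the floor, a gene at 0 counts could still hold up to 0.0869 CPM in the largest library and 0.271 CPM in the smallest. Intervals and floors cover counting error only. Libraries of 1 group differed by a chi-square per degree of freedom of at least 39.8 over human genes, so none repeated another.

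Taxane-free tumours held few counts of these genes. Of the 664 taxane-free values, 172 (25.9%) were 0, and the median was 0.149 CPM. The summed level of the 83 genes was 19.2, 17.5, 14.8 and 21.3 CPM in vehicle 1 to 4. In phenelzine 1 to 4 it was 15.8, 25.7, 20.5 and 17.1 CPM. These 2 sets overlap. One gene was at 0 in all 8 taxane-free libraries, and 48 were at 0 in at least 1. Low taxane-free levels rest on a few counts each, and in this matrix the value 1 occurs 14483 times while 2 and 3 occur 24107 and 24309 times, so low counts are not a plain tally of single reads.

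Taxane-treated tumours did not act as 1 group. The summed level was 2601, 121, 214 and 1120 CPM in nab-paclitaxel 1 to 4. It was 1883, 37.6, 2637 and 127 CPM in combination 1 to 4. Nab-paclitaxel 1 and 4 and combination 1 and 3 were high, and the other 4 taxane-treated libraries lay between these and the taxane-free ones. At the top, in combination 3, the 83 genes made up 0.264% of all human counts. The group means were 1014 ± 1150 CPM with nab-paclitaxel and 1171 ± 1295 CPM with the combination (SD, n = 4 each), so the spread within each group was as large as its mean.

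Counted gene by gene, 68, 1, 4 and 30 of the 83 stood at 10 CPM or more in nab-paclitaxel 1 to 4. In combination 1 to 4 the numbers were 54, 0, 70 and 0. Most genes passed in several tumours: 18 in 1 library, 15 in 2, 24 in 3, 23 in 4 and 3 in 5. Both taxane-treated groups contributed, with 62 genes at 10 CPM or more in each group, 9 in the nab-paclitaxel group only and 12 in the combination group only. Without nab-paclitaxel 1 and 4 and combination 1 and 3, a choice made after seeing the data, 4 of the 83 genes and no other ID met the rule.

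**Figure D1:**
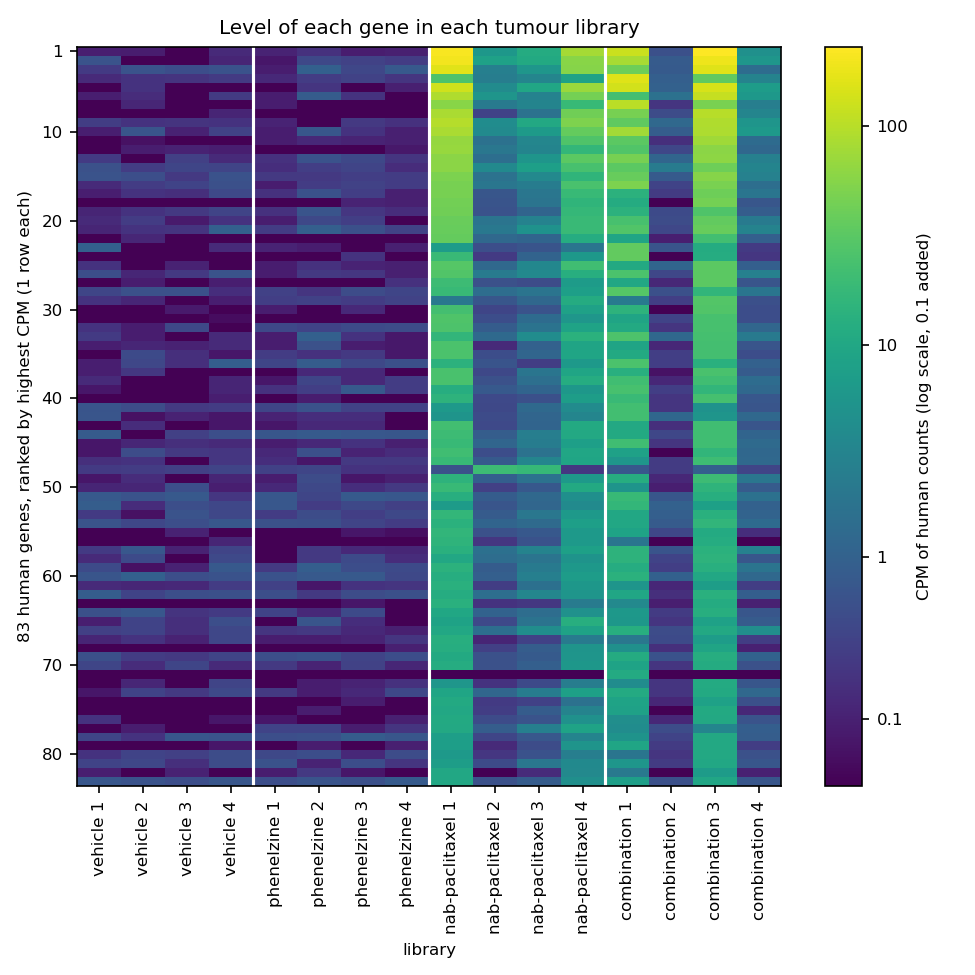
Colour gives the CPM of human counts (log scale, 0.1 added) of the 83 genes (rows, ranked by highest CPM) in the 16 libraries (columns, white lines between groups). Columns nab-paclitaxel 1, combination 1 and combination 3 are bright over nearly all rows, nab-paclitaxel 4 less so, and combination 2 is close to the taxane-free columns; the row at rank 48 is bright in nab-paclitaxel 2 and 3 and the row at rank 71 in combination 1.

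Levels were modest for most of the genes. Their highest CPM ranged from 10.1 to 229, with a median of 21.8 and quartiles of 13.5 and 37.1. It was at least 20 CPM in 48 genes, at least 50 in 15, at least 100 in 7, and under 15 in 27. CPM is not corrected for gene length, so these levels do not rank the genes by transcript number. At the upper threshold, the lowest members reached 10.1 CPM and the nearest IDs outside reached 9.92 and 9.67 CPM. At the lower threshold, the highest taxane-free values of members were 0.982 and 0.971 CPM and those of the nearest IDs outside 1.01 and 1.03 CPM. Levels ran on without a gap across both thresholds.

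ENSG00000133067 stood at 0.0920, 0.0845, 0 and 0.149 CPM in vehicle 1 to 4. In phenelzine 1 to 4 it was 0.116, 0.204, 0.0885 and 0.0992 CPM. It reached 213, 5.91, 11.6 and 81.2 CPM in nab-paclitaxel 1 to 4. In combination 1 to 4 its level was 124, 0.556, 229 and 4.68 CPM. Every taxane-treated value was thus above every taxane-free one, while taxane-treated tumours themselves differed by a wide margin. The 3657 counts behind the highest value give a 95% Poisson interval of 221 to 236 CPM, and the 12 counts in combination 2 one of 0.287 to 0.972 CPM. These intervals are narrow against the differences between tumours, whose means were 78.0 ± 96.4 CPM with nab-paclitaxel and 89.5 ± 109 CPM with the combination (SD, n = 4 each).

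ENSG00000168542 was high and low in the same tumours at similar levels. It was at 0.614, 0, 0 and 0.120 CPM in vehicle 1 to 4. In phenelzine 1 to 4 it was at 0.0579, 0.436, 0.354 and 0.298 CPM. The nab-paclitaxel tumours 1 to 4 held 201, 8.23, 10.7 and 57.2 CPM, and the combination tumours 82.9, 0.835, 186 and 5.72 CPM. The value in combination 2 rests on 18 counts and exceeded the highest taxane-free value by less than its counting interval of 0.495 to 1.32 CPM.

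The genes varied together across the 8 taxane-treated tumours. In 81 of 83 the 4 highest taxane-treated libraries were nab-paclitaxel 1, nab-paclitaxel 4, combination 1 and combination 3. The same 4 were highest in 2234 of the other human IDs at 10 CPM or more in a taxane-treated library, or 19.8%, and this was also the most common set of 4 there. The next most common set, at 15.8%, was its complement, nab-paclitaxel 2 and 3 with combination 2 and 4. The IDs just short of the upper threshold, at 5 to 10 CPM in their highest taxane-treated library, had the members' set in 103 of 118. Those just over the lower threshold, above 1 and up to 2 CPM in an taxane-free library, had it in 63 of 67. The shared order was therefore not particular to the 83 genes, and the thresholds that chose them bear on it.

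The highest library was nab-paclitaxel 1 for 31 genes, combination 3 for 31 and combination 1 for 19. For 1 gene each it was nab-paclitaxel 4 and nab-paclitaxel 2. Nab-paclitaxel 1, combination 3 and combination 1 were thus the highest taxane-treated library for 37.3%, 37.3% and 22.9% of the genes. Over all human IDs at 10 CPM or more in a taxane-treated library, these shares were 16.5%, 18.6% and 11.4%. That wider set was not chosen for low taxane-free levels. The rule used the members' values, and 68, 70 and 54 of the genes stood at 10 CPM or more in these libraries. Where the highest value falls is therefore bound up with how the genes were chosen. Set against each gene's own highest value, the median level was 90.3% in nab-paclitaxel 1 and 93.3% in combination 3. It was 54.4% in combination 1 and 38.3% in nab-paclitaxel 4. The median was 6.35% in nab-paclitaxel 3, 4.68% in combination 4, 3.10% in nab-paclitaxel 2 and 1.29% in combination 2.

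**Figure D2:**
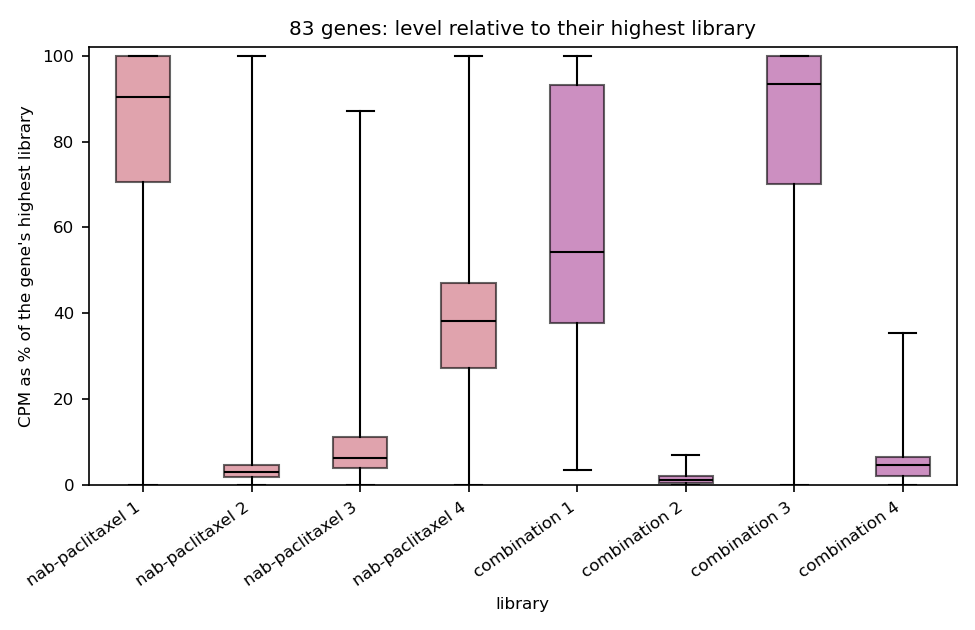
Each box shows, for 1 taxane-treated library, the CPM of the 83 genes as a percentage of each gene's highest library (line, median; box, quartiles; whiskers, lowest and highest gene). Medians fall from 93.3% in combination 3 and 90.3% in nab-paclitaxel 1 to 1.29% in combination 2, and the box of combination 1 is the widest.

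Ratios between pairs of tumours were narrow for some pairs and wide for others. Combination 3 over nab-paclitaxel 1 had a median ratio of 1.01 over the 82 genes with a count in both (quartiles 0.868 and 1.16). These tumours come from different treatment groups, and 43 of the 82 genes were higher in combination 3. The same ratio over the other IDs at 10 CPM or more in a taxane-treated library had a median of 1.02 (quartiles 0.927 and 1.13). The closeness of this pair was therefore not particular to the members. Nab-paclitaxel 4 over nab-paclitaxel 1 had a median of 0.440 (quartiles 0.369 and 0.513), so most of the genes were scaled down by a similar factor. Over the other IDs at 10 CPM or more in a taxane-treated library this ratio had a median of 1.01. Combination 1 over nab-paclitaxel 1 was wider, with a median of 0.715 and quartiles of 0.404 and 1.10. Over the other IDs this last ratio had a median of 0.921 and quartiles of 0.789 and 1.08. The rule used the values behind these ratios. At 10 CPM or more stood 68 of the genes in nab-paclitaxel 1, 30 in nab-paclitaxel 4 and 54 in combination 1. The choice of the genes therefore bears on the ratios over nab-paclitaxel 1, and the other IDs were not chosen for low taxane-free levels.

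Among these 4 tumours, combination 1 was the one in which the genes departed most from a common factor. In it, 8 genes were over 2-fold higher than in combination 3, and 28 were over 2-fold lower. The ratio of combination 1 over combination 3 had a median of 0.688 over the members (quartiles 0.437 and 0.998). Over the other IDs at 10 CPM or more in a taxane-treated library it was 0.904 (quartiles 0.765 and 1.06). The share of those IDs past 2-fold was not counted. Combination 1 also had the lowest human total, 11.1 M, and the highest mouse share, 71.2%, of all libraries. The gene at rank 4 by highest CPM stood at 158 CPM in combination 1 and at 34.3, 26.3 and 8.59 CPM in combination 3, nab-paclitaxel 1 and nab-paclitaxel 4. The gene at rank 7 stood at 104, 47.6, 58.1 and 18.4 CPM in the same 4 libraries. The opposite held for the gene at rank 3, at 41.7 CPM in combination 1 and 156, 160 and 55.5 CPM in the other 3. The gene at rank 6 was likewise low in combination 1, at 22.9 CPM, against 116, 91.1 and 45.2 CPM. The gene at rank 5 was level across 3 of them, at 133, 143 and 129 CPM, with 71.5 CPM in nab-paclitaxel 4. These genes are named by rank only and belong to the 10 with the highest CPM.

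Departures from the common set were seen in 2 genes. These and a further uneven gene were singled out after their values were seen. One gene was high in nab-paclitaxel 2 and 3 instead, at 20.3 and 17.7 CPM, and at most 0.938 CPM in each of the other 14 libraries. Another was at 0 counts in 15 libraries and at 11.2 CPM in combination 1 alone. A further gene kept the common set of 4 highest libraries but was uneven within it, at 28.6 and 11.6 CPM in combination 3 and nab-paclitaxel 4 and at 2.14 and 2.26 CPM in nab-paclitaxel 1 and combination 1. The first of these 3 genes was also the 1 ID that met the rule when tumours without phenelzine were set against those with it, and the second was among the 3 IDs that met the rule in the opposite direction of that split. Those 2 genes thus rest on 1 or 2 tumours each.

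In 3 of the 4 taxane-treated tumours with a low summed level, most of the genes were still above the taxane-free values. In combination 4, 74 of the 83 were above their own highest taxane-free value, in nab-paclitaxel 3 it was 77 and in nab-paclitaxel 2 it was 60. In combination 2 it was 35. The highest level of any of the genes was 7.18 CPM in combination 4 and 2.36 CPM in combination 2. These counts compare 1 library with the highest of 8 and come from the contrast that chose the genes.

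The mouse share of counts, the percentage of all human and mouse counts that lie in the mouse matrix, moved with the level of the genes in part. It was 59.7%, 23.4%, 21.0% and 41.9% in nab-paclitaxel 1 to 4. In combination 1 to 4 it was 71.2%, 47.4%, 55.9% and 18.6%. In taxane-free tumours it lay between 9.25% and 37.8%. The 3 libraries with the highest share were also the 3 with the highest summed level. Combination 2 broke this pattern, with a share of 47.4%, above the 41.9% of nab-paclitaxel 4, and a summed level of 37.6 against 1120 CPM. Vehicle 2 had a share of 37.8% and a summed level of 17.5 CPM, whereas nab-paclitaxel 3 and combination 4, at shares of 21.0% and 18.6%, held 214 and 127 CPM. The part of mouse RNA in these values was not tested.

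**Figure D3:**
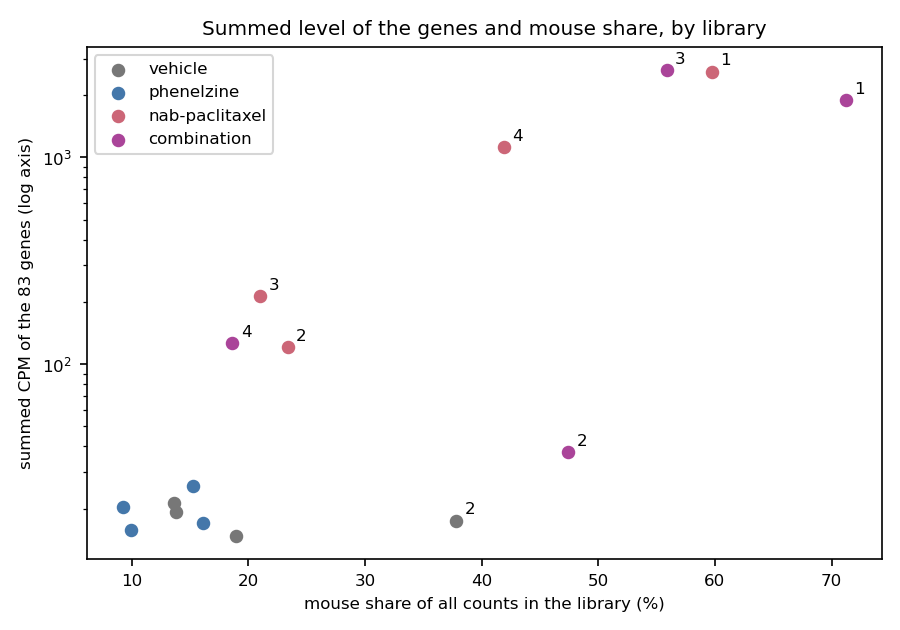
Points are the 16 libraries, with the mouse share of all counts (%) on the x axis and the summed CPM of the 83 genes on a logarithmic y axis; colours give the groups, and numbers the replicate of taxane-treated libraries and of vehicle 2. The 3 taxane-treated libraries nab-paclitaxel 1, combination 1 and combination 3 lie at the top right between 1883 and 2637 CPM, while combination 2 (47.4%, 37.6 CPM) and vehicle 2 (37.8%, 17.5 CPM) lie far below them.

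Human depth was low where the level of the genes was high. The human totals of nab-paclitaxel 1, combination 1 and combination 3 were 15.4, 11.1 and 15.996 M, the lowest of all 16. The human total of nab-paclitaxel 4 was 23.8 M. The libraries with the lowest human totals were those with the highest mouse share, and the share is computed from the human total. Depth and mouse share therefore cannot be told apart here, and the part of depth in the levels was not tested.

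Phenelzine added to nab-paclitaxel is a contrast between the taxane-treated groups, which entered the rule in the same way. The rule still used the values of the libraries compared here. It was met at 10 CPM in the nab-paclitaxel group only by 9 genes, and in the combination group only by 12. The choice of the genes therefore bears on this contrast. Of the 82 members that passed the filter on low counts, 0 passed the threshold (edgeR quasi-likelihood test, adjusted p = 1 for each, 2 at an unadjusted p under 0.05). Over all 18131 human genes tested edgeR called 1, or 0.00552%, and 2.94% had an unadjusted p under 0.05. DESeq2 called 1 member, and 10 of the 18119 genes to which it gave an adjusted p, or 0.0552%. The 4 combination and 4 nab-paclitaxel libraries overlapped in all 82 members, and did not overlap in 1.54% of all genes tested. The member left untested was the one seen in combination 1 alone. Because every member reached the filter through taxane-treated tumours, these counts describe the members and support no statement on them.

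The size of this difference was poorly determined. The log2 fold change of the combination over nab-paclitaxel had a median of 0.21 over the 82 members, with quartiles of -0.10 and 0.56, against a median of 0.00 over all genes tested, and 55 members were above 0 and 27 below. The median standard error over members was 1.08 on the same log2 scale. ENSG00000133067 differed by 0.21 on the log2 scale (SE 1.16) and ENSG00000168542 by 0.00 (SE 1.15), both with an edgeR adjusted p of 1. Errors of this size do not resolve a change of 2-fold in a single gene.

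The balance of signs turned on single tumours. Without nab-paclitaxel 1, 79 of the 82 members were higher with the combination and the median log2 fold change was 1.22. Without combination 3, 61 were lower and the median was -0.58. The median was below 0 also without nab-paclitaxel 2 (-0.16), nab-paclitaxel 3 (-0.10) or combination 1 (-0.18), and with the mouse share added as a covariate it was -0.65. It was 0.60 without combination 2 and 0.57 without combination 4. Over all genes tested, the median in these fits lay between -0.013 and 0.026. The members vary together, so their signs are not separate observations. None of these edgeR fits called a member.

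**Figure D4:**
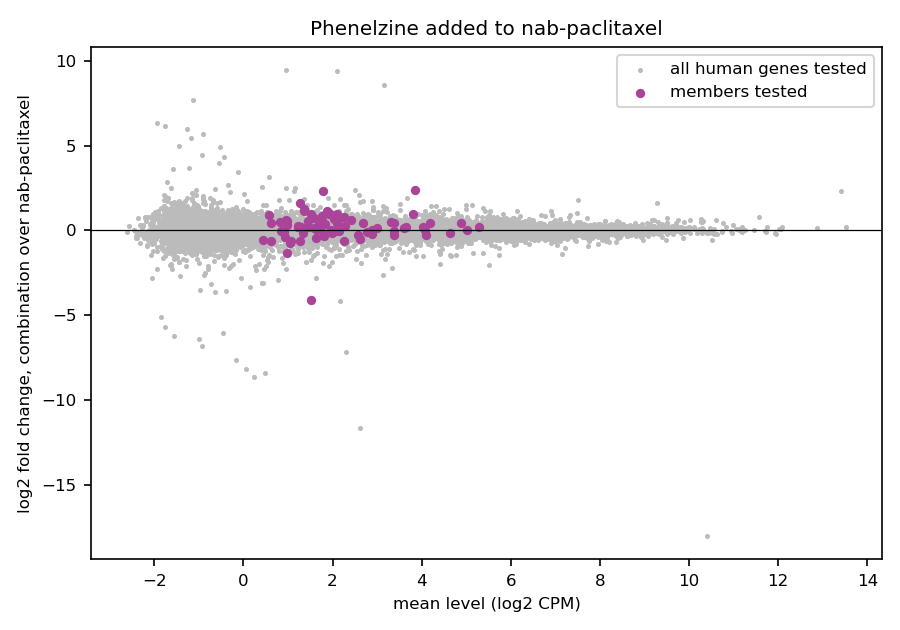
Log2 fold change of the combination over nab-paclitaxel (y axis) against mean log2 CPM (x axis) for all 18131 human genes tested (grey) and the 82 members tested (purple). Members lie on both sides of 0 between -4.13 and 2.37, with a median of 0.21, inside the cloud of all genes apart from a few.

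The member with the lowest p in this contrast was the gene high in nab-paclitaxel 2 and 3, the libraries through which it met the rule. It had a mean of 9.66 CPM, scaled by the TMM factors of edgeR, with nab-paclitaxel and 0.563 with the combination, a log2 fold change of -4.13 (SE 1.03). It did not pass the edgeR test (unadjusted p = 0.00116, edgeR adjusted p = 1). It was the member that DESeq2 called (DESeq2 adjusted p = 0.0116). Nab-paclitaxel 1 and 4 held 0.584 and 0.253 CPM of it, within or close to the taxane-free range up to 0.407 CPM. The gene at rank 4 had the highest fold change among members tested, with means of 48.7 and 9.49 TMM-scaled CPM and a difference of 2.37 in log2 units (SE 1.08, edgeR adjusted p = 1), which rests on the 158 CPM in combination 1.

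The same thresholds gave few IDs in other directions. With taxane-treated and taxane-free tumours exchanged, 5 human IDs were at 1 CPM or less in all 8 taxane-treated libraries and at 10 CPM or more in an taxane-free one, against the 83. With phenelzine in place of nab-paclitaxel, 3 IDs were high only with it and 1 only without it. These counts share the same 16 libraries and were not tested. The 83 genes were 0.730% of the 11367 human IDs at 10 CPM or more in a taxane-treated library.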

How the data were processed

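The authors deposited 2 matrices of whole-number gene counts, 1 human and 1 mouse, over the same 16 libraries, which were made with a TruSeq mRNA paired-end kit per the labels' protocols. The submitters' processing notes name the builds hg38 and mm10 and, with neither sequence nor purpose, HISAT2 2.04, Trimmomatic 0.36, StringTie, Picard and edgeR. The division of reads between species was not given in the sources used here, nor was the use of strand. Groups come from the sample titles. The members and lists were chosen with earlier results of these data known. CPM used raw column totals.

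The combination was compared with nab-paclitaxel by the quasi-likelihood test of edgeR 4.0.16 (R 4.3.3). Factors were TMM, low counts were removed by the default filter, the model had a mean for each group, and all 16 libraries entered it, which left 12 residual degrees of freedom. P-values were adjusted by Benjamini and Hochberg across every gene tested, with a threshold of 0.05. Standard errors are the absolute log2 fold change over the square root of F. P-values set the difference between groups against the spread between tumours within groups, estimated over all 16 libraries. The script was tested on data simulated with the same spread for every gene. That setting differs from the members, which vary more than most genes, so it says nothing on their fits. DESeq2 1.42.0, other factors, no filter, a replicate block, the mouse share as a covariate and leaving out libraries were tried. The rule for named genes took the 10 highest members, the 10 in most libraries, list members, called members and those at the thresholds; without symbols it allowed 2 IDs. A test of mouse counterparts was not run, since no ID could be matched. No batch is given in the labels used here, and 0 sample columns were unused.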

Additional observations from a re-analysis of the deposited data

How the results depend on the processing

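The number of IDs meeting the rule was 76 to 92 with 1 library left out and 71 on TMM-scaled CPM. It was 201 at an upper threshold of 5 CPM, 48 at 20 CPM, 45 at a lower threshold of 0.5 CPM, 150 at 2 CPM, 65 when 2 libraries had to pass, and 4 without nab-paclitaxel 1 and 4 and combination 1 and 3, a choice made after seeing the data. At 20 CPM the members past the threshold numbered 34, 1, 0 and 13 in nab-paclitaxel 1 to 4. In combination 1 to 4 they numbered 29, 0, 39 and 0. At 5 CPM they numbered 80, 4, 10 and 64 in nab-paclitaxel 1 to 4, and 72, 0, 80 and 5 in combination 1 to 4. For the combination against nab-paclitaxel, edgeR called 0 to 1 human genes with 1 of the 8 compared libraries left out (0 without combination 4) and 6 without the 4 libraries above, and DESeq2 called 10. Members called were 0 with each of the 8 nab-paclitaxel and combination libraries left out in turn, 1 by DESeq2 and 1 without the 4 libraries. This was the same gene in both, and the 4 libraries include the nab-paclitaxel libraries in which it is low, so the latter call follows from what was left out. With the replicate number as a block 0 genes and 0 members were called, and the median log2 fold change of members was -0.12. Same-numbered nab-paclitaxel and combination libraries correlated at 0.504, 0.569, -0.432 and -0.256 for numbers 1 to 4 in their deviations from the group means, so the number did not pair them; 1 of the 4 nab-paclitaxel libraries correlated best with its own number. The settings for mouse counterparts were not run. Depth limits the taxane-free levels, where 1 CPM equals 23.7 to 34.5 counts.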

Other observations

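In the mouse matrix, which stands for the host cells, the same thresholds gave 10 IDs that were low in all taxane-free and high in at least 1 taxane-treated library, of 11795 mouse IDs at 10 CPM or more in a taxane-treated library. With taxane-treated and taxane-free exchanged they gave 33. The human matrix gave 83 and 5. These counts were not tested, and mouse IDs were not matched to the human ones.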
